A study of Mus musculus with 32 samples.

Results

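The heat shock chaperone genes were examined in RNA from the retinal pigment epithelium (RPE) of *rd1* mice. They comprised 10 genes chosen by name (*Hspa1a*, *Hspa1b*, *Hspa8*, *Hsph1*, *Dnajb1*, *Hspb1*, *Hspb8*, *Bag3*, *Hsp90aa1*, and *Hspd1*) of the 34453 genes in the table, and all 10 passed the filter on low counts in every comparison. The *rd1* mice, which lose their rods through a mutation in *Pde6b*, were sampled at P20 (7 mice) or P40 (9 mice). Vectors were injected under the retina, a mixture of AAV-Best1-GFP and AAV-Best1-Nrf2 into one eye (Nrf2) and only AAV-Best1-GFP into its fellow (control), so that every eye carried a GFP vector and no eye was uninjected. The Nrf2 vector carried the human *NFE2L2* cDNA in an AAV8 capsid, the GFP vector had the 7M8 capsid, and in both the human Best1 promoter restricts expression to the RPE. The study's methods also describe CD1 mice at P40 and fewer *rd1* pairs than are labelled so here, so some P40 mice labelled *rd1* may be CD1; the strain was taken from the labels.

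Heat shock proteins are chaperones that keep other proteins folded. When unfolded protein accumulates, heat shock factor 1 (HSF1) is released from the chaperones that hold it, binds heat shock elements (inverted repeats of nGAAn) in the promoters of these genes, and raises their transcription within minutes. *Hspa1a* and *Hspa1b* encode the inducible HSP70, *Hspa8* the constitutive HSC70, and *Hsph1* (HSP110) the factor that exchanges their nucleotide. *Dnajb1* (HSP40) delivers clients to HSP70. *Hspb1* and *Hspb8* are small heat shock proteins that hold unfolded clients without ATP, and *Bag3* is the co-chaperone that links HSPB8 and HSP70 to selective autophagy. *Hsp90aa1* encodes the inducible cytosolic HSP90, and *Hspd1* (HSP60) folds proteins in the mitochondrial matrix. Nrf2 is best known for another stress response, that of antioxidant genes, which it activates at antioxidant response elements.

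The bases upstream of the start show which members carry the letters that HSF1 reads, and how alike the 2 inducible HSP70 genes are. RefSeq (GRCm38.p6) held a promoter for 8 of the 10 members, not including *Hspa8* and *Hsp90aa1*. Each sequence below holds the 250 bases before a start, read 5′ to 3′ on the strand of the gene, with matches to GAANNTTC or TTCNNGAA, 2 facing units of a heat shock element, in capitals. Where RefSeq gave several starts, 1 is shown. *Hspa1a* (chr17:34972157-34972406), *Hspa1b* (chr17:34959239-34959488), *Hsph1* (chr5:149636337-149636586), and *Hspb8* (chr5:116422865-116423114) lie on the minus strand and *Hspb1* (chr5:135887669-135887918) on the plus strand. For *Hspd1*, which alone holds 3 units in a row, the 18 bases at chr1:55088059-55088076 on the minus strand are shown.
Hspa1a: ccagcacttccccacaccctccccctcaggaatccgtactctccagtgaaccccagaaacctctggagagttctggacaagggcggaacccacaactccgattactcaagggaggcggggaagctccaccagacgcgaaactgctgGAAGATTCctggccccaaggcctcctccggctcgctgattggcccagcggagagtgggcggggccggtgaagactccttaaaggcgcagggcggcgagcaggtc
Hspa1b: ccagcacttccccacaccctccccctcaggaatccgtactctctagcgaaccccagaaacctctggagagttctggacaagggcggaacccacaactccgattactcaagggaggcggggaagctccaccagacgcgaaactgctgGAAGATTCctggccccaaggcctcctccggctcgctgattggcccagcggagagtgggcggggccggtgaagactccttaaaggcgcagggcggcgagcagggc
Hspb1: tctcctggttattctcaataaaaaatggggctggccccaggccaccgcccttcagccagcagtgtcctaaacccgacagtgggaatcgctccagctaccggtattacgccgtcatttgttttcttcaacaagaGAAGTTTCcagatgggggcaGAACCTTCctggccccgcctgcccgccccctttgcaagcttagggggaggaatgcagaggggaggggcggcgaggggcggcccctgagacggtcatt
Hsph1: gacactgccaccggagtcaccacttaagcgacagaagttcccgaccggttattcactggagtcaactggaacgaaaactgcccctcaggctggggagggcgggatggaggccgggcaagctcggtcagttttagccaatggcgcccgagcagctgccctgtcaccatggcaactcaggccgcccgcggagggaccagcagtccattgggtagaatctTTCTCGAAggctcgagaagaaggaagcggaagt
Hspb8: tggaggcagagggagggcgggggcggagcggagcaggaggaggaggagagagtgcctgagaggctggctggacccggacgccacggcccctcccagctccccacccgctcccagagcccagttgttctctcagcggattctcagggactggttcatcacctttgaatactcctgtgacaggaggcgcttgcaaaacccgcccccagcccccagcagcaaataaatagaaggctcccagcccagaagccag
Hspd1: TTCCGGAAGGTTCTAGAA

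GAANNTTC or TTCNNGAA, searched on both strands (each reads the same on either), was found in 5 of the 8 members with a promoter, against 14.5% of all 27025 genes with a promoter. *Hspa1a* and *Hspa1b* shared 1 match (GAAGATTC, from −104 to −97), *Hspb1* had 2 (GAAGTTTC and GAACCTTC), *Hsph1* had 1 (TTCTCGAA, from −33 to −26), and *Hspd1* had 3 that overlap in its 18 bases. The 3-unit form (GAANNTTC followed by NNGAA, or TTCNNGAA followed by NNTTC), which contains the shorter ones, was found in *Hspd1* and in 0.514% of all genes. *Hspb8*, *Bag3*, and *Dnajb1* held none of these letters in this window. The core letters of the antioxidant response element (TGACNNNGC, both strands) were found in *Hsph1* (GCTCGGTCA and GCCCTGTCA on the strand shown) and *Dnajb1* (GCTGCGTCA), against 11.5% of all genes. Such a match describes letters only, and its absence says nothing about HSF1 or Nrf2. The windows of *Hspa1a* and *Hspa1b* differed at 3 of 250 bases and their coding sequences were 99.4% identical (1915 of 1926 aligned bases), so how estimated reads were split between them is uncertain. Summed into a single gene, they gave the same calls as apart.

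The libraries held between 16548332 and 50542797 estimated counts. The RPE markers *Rpe65*, *Best1*, *Rlbp1*, *Ttr*, and others of a list of 10 summed to 5259 to 67799 CPM (estimated counts scaled to the size of each library), whereas rod, cone, macrophage, and muscle markers were also present, and *Best1* itself was at 0.258 to 4.21 CPM. In bulk RNA fewer cells of a type cannot be told apart from less RNA per cell. The transgene *NFE2L2* was highest in Nrf2 eyes, with 2 exceptions that bear on P20. The control library of P20 mouse 3 had 1110 CPM and the Nrf2 library of P20 mouse 4 had 1096 CPM, whereas the median of the control eyes was 47.5 CPM and that of the Nrf2 eyes 5511 CPM. The counts of these 2 libraries differed by 8.26 times sampling noise, against at least 48.6 times for every other pair of libraries. The comparison of eyes at P20 was therefore also fitted without both mice. Its log2FCs are given below for *Hspa1a* and *Hspa1b* only, and for the other members the main values at P20 include both mice.

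In control eyes at P20, the members differed widely in level. Per kilobase of transcript, which is the scale on which genes can be compared, *Hspa8* had the highest level (251 CPM per kb ± 60.02, SD, n = 7), next to *Hspb1* (242 ± 183), *Hsp90aa1* (176 ± 38.6), and *Hspa1b* (155 ± 117). *Hspa1a* (58.4 ± 44.4), *Hspd1* (49.9 ± 5.78), *Dnajb1* (35.5 ± 13.5), and *Hspb8* (31.0 ± 8.91) followed. *Hsph1* (14.7 ± 4.19) and *Bag3* (12.3 ± 3.25) had the lowest levels. Neighbours in this order differed by less than the larger of their SDs, except for *Hspd1* and *Dnajb1*, and *Hspb8* and *Hsph1*. The members also differed in their spread, which was widest for *Hspa1a*, *Hspa1b*, and *Hspb1*. Within a group, the highest eye had 8.96 to 65.7 times the level of the lowest for *Hspa1b*, 9.07 to 38.6 times for *Hspa1a*, and 4.17 to 31.3 times for *Hspb1*. For *Hspa8* the same ratio was 1.20 to 2.75 and for *Hspd1* 1.23 to 2.29. Other heat-inducible members overlapped these, with 2.09 to 3.49 for *Dnajb1*, 1.84 to 3.48 for *Hsph1*, and 1.71 to 3.03 for *Bag3*.

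**Figure D1:**
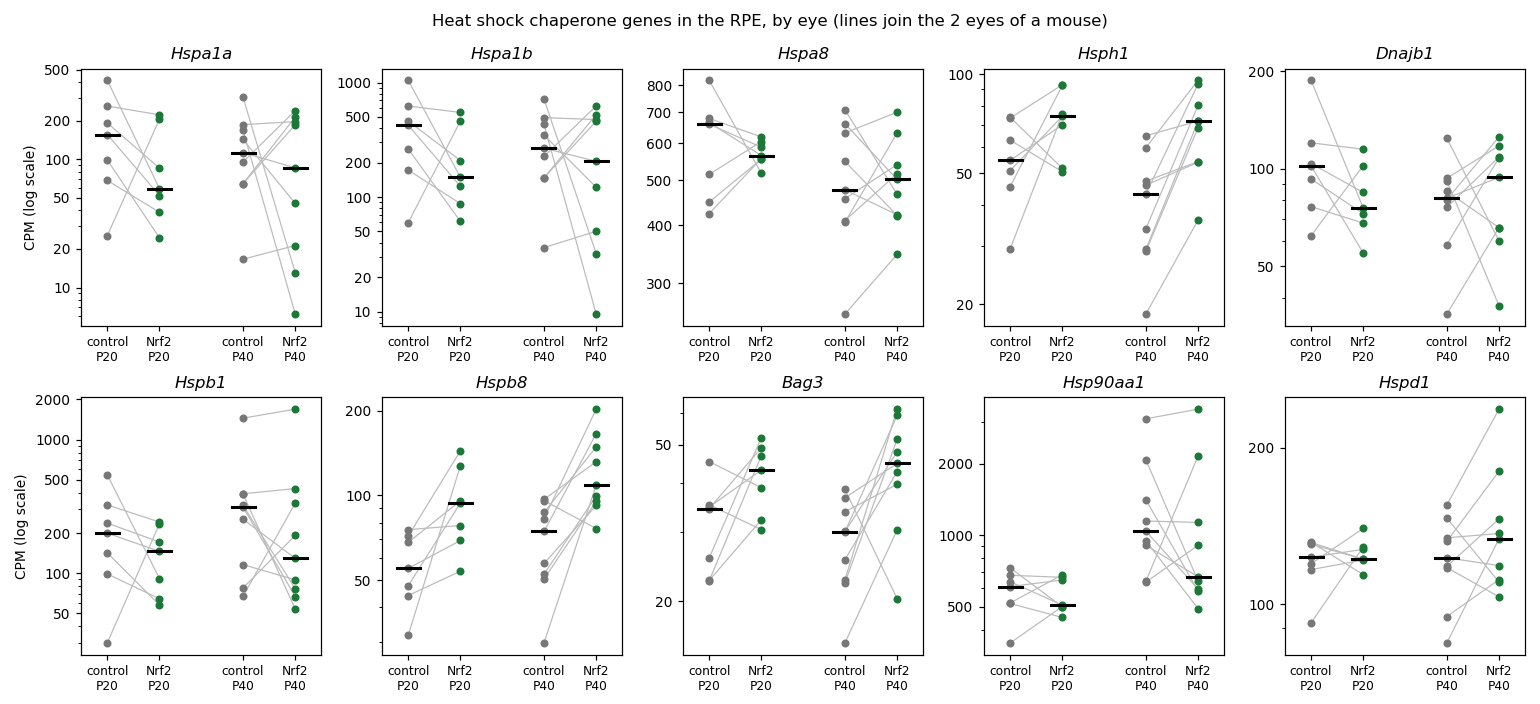
Level of each chaperone gene in CPM (log axis) in control eyes (grey) and Nrf2 eyes (green) at P20 (7 mice) and P40 (9 mice), with a point per eye, a line joining the eyes of a mouse, and a bar at the median of a group. Lines for Hsph1 at P40 rise in 9 of 9 mice and lines for Hspb8 in 8 of 9, whereas those of Hspa1a and Hspa1b cross, and Hspa1b in Nrf2 eyes at P40 ranges from 9.50 to 624 CPM.

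To determine whether Nrf2 changed these genes in the RPE, the eyes of each mouse were compared. At P40, 2 of the 10 members passed the threshold (adjusted *P* under 0.05, edgeR, over all genes), both higher in Nrf2 eyes, against 4.57% of the 16686 genes tested in either direction and 3.33% in that direction, and 3 (with *Bag3*) had an unadjusted *P* under 0.05, against 13% of genes. These were *Hspb8*, with a log2 fold change (log2FC) of 0.82 (SE 0.19, 1.76-fold, adjusted *P* = 0.0288), and *Hsph1*, with one of 0.75 (SE 0.17, 1.68-fold, adjusted *P* = 0.0217). At P20 none of the 10 passed in edgeR, against 3.41% of the 16303 genes tested, and 1 (*Hspb8*) had an unadjusted *P* under 0.05, against 18.2% of genes. The median log2FC of the members was 0.02 at P40 and −0.05 at P20, beside −0.03 and −0.04 over all genes tested, so the members did not move as a block.

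*Hspb8*, the small heat shock protein that works with BAG3, was higher in the Nrf2 eye of 7 of 7 mice at P20 and 8 of 9 at P40. At P40 its level ranged from 29.8 to 96.8 CPM (median 74.4) in control eyes and from 76.2 to 203 CPM (median 109) in Nrf2 eyes, so the groups overlapped. The exception was mouse 6, with 95.8 CPM in the control eye and 76.2 CPM in the Nrf2 eye. At P20 it ranged from 31.8 to 75.5 CPM (median 55) in control eyes and from 53.7 to 144 CPM (median 94.0) in Nrf2 eyes. The change at P20 was close to that at P40 (log2FC 0.71, SE 0.22, adjusted *P* = 0.137), and passed in DESeq2 (adjusted *P* = 0.0239) but not in edgeR. At P40 the call depended on single mice. The adjusted *P* stayed under 0.05 without mouse 2, 3, or 6 and reached 0.0608 to 0.0903 without mouse 1, 4, 5, 7, 8, or 9, with log2FCs of 0.70 to 0.94 over all 9 of these fits.

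*Hsph1*, the HSP110 that releases nucleotide from HSP70, was higher in the Nrf2 eye of 9 of 9 mice at P40 and 5 of 7 at P20. At P40 its level ranged from 18.7 to 64.9 CPM (median 43.2) in control eyes and from 36.05 to 95.7 CPM (median 71.9) in Nrf2 eyes, again with overlap between the groups. The difference was smallest in mouse 9 (0.15 on log2 CPM) and largest in mouse 3 (1.29). At P20, the exceptions were mouse 2 (63.0 CPM in the control eye and 50.5 in the Nrf2 eye) and mouse 4 (73.9 and 51.7 CPM), and the log2FC was 0.38 (SE 0.21, adjusted *P* = 0.387). The call at P40 was lost without the block for the mouse (0.72, adjusted *P* = 0.0638), without mice 3, 5, and 6 together (0.67, adjusted *P* = 0.159), and without mouse 2, 4, 5, or 7 alone (adjusted *P* = 0.0540 to 0.0767).

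*Bag3* had a positive log2FC at both ages but did not pass the threshold. Its level at P40 ranged from 15.7 to 38.5 CPM (median 30.0) in control eyes and from 20.3 to 61.5 CPM (median 44.8) in Nrf2 eyes, with the Nrf2 eye higher in 8 of 9 mice and the exception again in mouse 6 (38.5 and 20.3 CPM). The log2FC was 0.59 (SE 0.21, adjusted *P* = 0.200), and it passed only without mouse 6 (0.75, adjusted *P* = 0.0185) and in limma voom with weights per library (0.69, adjusted *P* = 0.0141). At P20 the Nrf2 eye was higher in 5 of 7 mice, with a log2FC of 0.41 (SE 0.18, adjusted *P* = 0.278 in edgeR and 0.0455 in limma voom). Mouse 6 at P40, which went against both *Hspb8* and *Bag3*, also had the lowest *Hspa1a* of all 32 libraries in its Nrf2 eye (6.21 CPM).

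**Figure D2:**
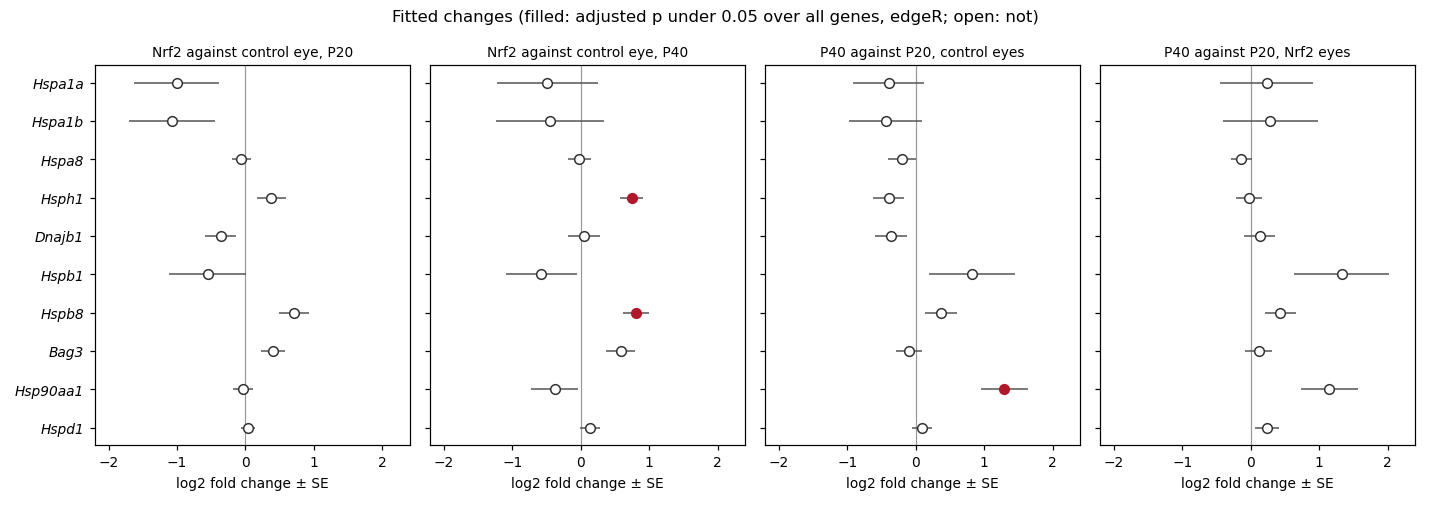
Fitted log2 fold change (horizontal axis, bars 1 SE) of each chaperone gene for Nrf2 against control eyes at P20 and P40 and for P40 against P20 in control and in Nrf2 eyes. Filled points passed an adjusted P of 0.05 in edgeR, which were Hsph1 (0.75) and Hspb8 (0.82) for Nrf2 at P40 and Hsp90aa1 (1.29) for age in control eyes.

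The inducible HSP70 genes had the opposite sign and much wider errors. At P20, *Hspa1a* ranged from 25.3 to 413 CPM (median 156) in control eyes and from 24.5 to 222 CPM (median 59.0) in Nrf2 eyes. The Nrf2 eye was lower in 6 of 7 mice, with a log2FC of −1.004 (SE 0.62, adjusted *P* = 0.430), and *Hspb1* and *Dnajb1* were also lower in 6 of 7 (log2FCs −0.55, SE 0.56, and −0.36, SE 0.22, adjusted *P* = 0.634 and 0.428). Mouse 4, whose Nrf2 library had the lowest transgene of the Nrf2 eyes, was the exception for all of these genes, with *Hspa1a* at 25.3 CPM in the control eye and 205 CPM in the Nrf2 eye. Without mouse 4, *Hspa1a* (−1.47, adjusted *P* = 0.0233) and *Hspa1b* (−1.54, adjusted *P* = 0.0224) passed. That fit called 1999 of 16330 genes tested, against 556 of 16303 with all mice. Without both mouse 3 and mouse 4 the log2FCs were −1.53 and −1.62 and the adjusted *P* values 0.0622 and 0.0585. At P40 no such direction was seen. *Hspa1a* was higher in the Nrf2 eye of 5 of 9 mice and lower in 4, with differences from −4.75 to 1.72 on log2 CPM and a log2FC of −0.48 (SE 0.74, adjusted *P* = 0.895).

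No remaining member passed with Nrf2 at either age in edgeR. *Hspa8*, the constitutive HSC70, had log2FCs of −0.06 (SE 0.14) at P20 and −0.02 (SE 0.17) at P40, and *Hspd1*, the mitochondrial HSP60, had 0.04 (SE 0.11) and 0.14 (SE 0.15). *Hsp90aa1* had −0.04 (SE 0.14) and −0.38 (SE 0.35), and *Dnajb1* had 0.05 (SE 0.24) at P40. At P40 the differences between the eyes ran from −1.70 to 1.76 on log2 CPM for *Hsp90aa1*. They ran from −2.85 to 2.32 for *Hspb1* and from −5.50 to 1.83 for *Hspa1b*. No member had an effect of Nrf2 that differed between P40 and P20 in a test of the difference itself, where 0.00557% of the 17959 genes tested passed in edgeR and no member had an unadjusted *P* under 0.05 (against 2.39% of genes) or passed in DESeq2. That difference was 0.12 (SE 0.30) for *Hspb8*, 0.38 (SE 0.27) for *Hsph1*, and 0.52 (SE 1.06) for *Hspa1a* on the log2 scale.

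The wider network was read from 9 lists of chaperones, their regulators, and autophagy receptors, with 100 genes tested beside the members. With Nrf2, 2 of the 100 rose at each age and none fell, in edgeR, which is no more than the 3.41% (P20) and 4.57% (P40) called over all genes. *Sqstm1*, which encodes the autophagy receptor p62 and is a known Nrf2 target, rose at P20 (log2FC 0.92, SE 0.18, adjusted *P* = 0.0304) and at P40 (0.89, SE 0.18, adjusted *P* = 0.0116). *Optn*, the autophagy receptor optineurin, rose at P20 (0.61, SE 0.13, adjusted *P* = 0.0447), and *Dnajb4*, a J-domain partner of HSP70, rose at P40 (0.61, SE 0.15, adjusted *P* = 0.0436). These calls held in 8 of 16 alternatives for *Sqstm1* at P20 and 16 of 17 at P40, in 6 of 16 for *Optn*, and in 7 of 17 for *Dnajb4*. *Hsf1*, the factor itself, had log2FCs of −0.35 (SE 0.11, adjusted *P* = 0.129) at P20 and −0.04 (SE 0.21, adjusted *P* = 0.978) at P40, and *Hsf2* had 0.07 (SE 0.29) and −0.24 (SE 0.28). By comparison, 12 of 12 Nrf2 targets rose at each age, a list built from what is known of Nrf2 rather than from heat shock. At P40, 9 of 9 cone markers were lower, 5 of 10 RPE markers were lower, and 7 of 10 macrophage markers were higher in Nrf2 eyes. Of the 10 macrophage markers 2 had a negative log2FC, and *Csf1r* had a mean of 142 CPM in control eyes and 63.0 CPM in Nrf2 eyes. Of 9 rod markers tested, 3 were lower and 1 was higher. The part of these markers in the changes of *Hspb8* and *Hsph1* was not tested. At P40 the 10 RPE markers summed to 10831 to 65758 CPM (median 37000) in control eyes and 12664 to 67799 CPM (median 20392) in Nrf2 eyes. Without *Ttr*, which led this sum in some libraries, the other 9 had medians of 21361 and 8977 CPM. The 10 macrophage markers summed to 66.2 to 465.8 CPM (median 175) in control eyes and 115 to 454 CPM (median 314) in Nrf2 eyes.

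Some members varied together between mice. Across the 16 mice, both eyes were averaged and the mean of each age was removed. Relations were 45 pairs of members, and each member with the mean log2 CPM of 16 immediate early genes. The latter, such as *Fos* and *Egr1*, respond rapidly to many stimuli. By Pearson's *r*, 23 of 55 relations passed a Benjamini-Hochberg adjusted *P* of 0.05 by permutation within age. Fewer passed by Spearman's rho. All values of a mouse come from the same libraries and scaling. *Hspa1a* and *Hspa1b* were nearly inseparable (*r* = 0.997, rho = 0.994, permutation *P* = 1e-05 for both, the smallest that these permutations can give, adjusted *P* = 0.00055). As the split of reads between them is uncertain, this *r* does not show that the 2 genes vary together. The 23 relations count those of *Hspa1a* and those of *Hspa1b* separately. *Hspa1a* also rose and fell with *Dnajb1* (*r* = 0.93, rho = 0.89, permutation *P* = 4e-05 and 8e-05, adjusted *P* = 0.000733 and 0.00147), with an *r* of 0.85 without the 2 mice farthest from the median and of 0.87 and 0.95 within P20 and P40. With the immediate early genes, *r* was 0.74 for *Hspa1a* (rho = 0.72, permutation *P* = 0.00232 and 0.00307, adjusted *P* = 0.0116 and 0.0169, *r* = 0.56 without the 2 farthest mice, 0.53 at P20 and 0.83 at P40) and 0.82 for *Dnajb1* (rho = 0.82, permutation *P* = 0.00025 and 0.00015, adjusted *P* = 0.00275 and 0.00206, *r* = 0.72 without the 2 farthest mice, 0.83 at both ages). *Hspb1* passed with *Hspa1a* (*r* = 0.69, rho = 0.78, permutation *P* = 0.00746 and 0.00102, adjusted *P* = 0.0241 and 0.00935, *r* = 0.70 without the 2 farthest mice, 0.95 at P20 and 0.61 at P40). It did not pass with the immediate early genes (*r* = 0.41, rho = 0.56, adjusted permutation *P* = 0.270 and 0.0918). With *Dnajb1*, *Hspb1* passed by rho (0.64, adjusted permutation *P* = 0.0458) but not by *r* (0.58, adjusted permutation *P* = 0.0719). *Bag3* passed with *Dnajb1* (*r* = 0.83, rho = 0.74, adjusted permutation *P* = 0.00275 and 0.0134, *r* = 0.66 without the 2 farthest mice). It also passed with *Hspa1a* (*r* = 0.77, rho = 0.68, adjusted permutation *P* = 0.011 and 0.0284, *r* = 0.52 without the 2 farthest mice), but not with *Hspb8* (*r* = 0.32, adjusted permutation *P* = 0.397). No such relation was detected for *Hspb8*, with an *r* of 0.07 with the immediate early genes (rho = −0.03, permutation *P* = 0.821 and 0.911, adjusted *P* = 0.836 and 0.945) and of −0.12 with *Hspa1a* (rho = −0.21, permutation *P* = 0.668 and 0.438, adjusted *P* = 0.759 and 0.564).

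Differences between fellow eyes, a measure chosen after seeing the data, had 20 of 55 relations past the threshold by Pearson's *r* and fewer by rho. That of *Hspb1* with the immediate early genes passed by both (*r* = 0.90, rho = 0.78, permutation *P* = 6e-05 and 0.00164, adjusted *P* = 0.000412 and 0.00902, *r* = 0.85 without the 2 farthest mice, 0.96 at P20 and 0.85 at P40). The difference in *Hspa1a* followed that in the immediate early genes (*r* = 0.94, rho = 0.84, permutation *P* = 2e-05 and 0.00019, adjusted *P* = 0.000157 and 0.00131), with an *r* of 0.91 without P40 mice 4 and 6, of 0.96 at P20 and 0.94 at P40, and of 0.91 without P20 mice 3 and 4. In P40 mouse 6, *Hspa1a* differed by −4.75 and the immediate early genes by −1.22 on log2 CPM, and in P20 mouse 4 they differed by 3.01 and 0.78. At P20 the immediate early genes were lower in the Nrf2 eye of the same 6 of 7 mice as *Hspa1a*, and their level summed to 359 to 1510 CPM in control eyes and 330 to 643 CPM in Nrf2 eyes. Of that list *Egr1* fell at P20 (log2FC −1.36, SE 0.27, adjusted *P* = 0.0349) and at P40 (−1.26, SE 0.28, adjusted *P* = 0.0225), and *Ccn1* rose at P20 (0.64, SE 0.14, adjusted *P* = 0.0420). The calls held in 7 of 16 and 12 of 17 alternatives for *Egr1* and in 6 of 16 for *Ccn1*, and without the replicate block all were lost (*Egr1* adjusted *P* = 0.103 at P20 and 0.140 at P40, *Ccn1* 0.150). Why they moved with the HSP70 genes was not tested.

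**Figure D3:**
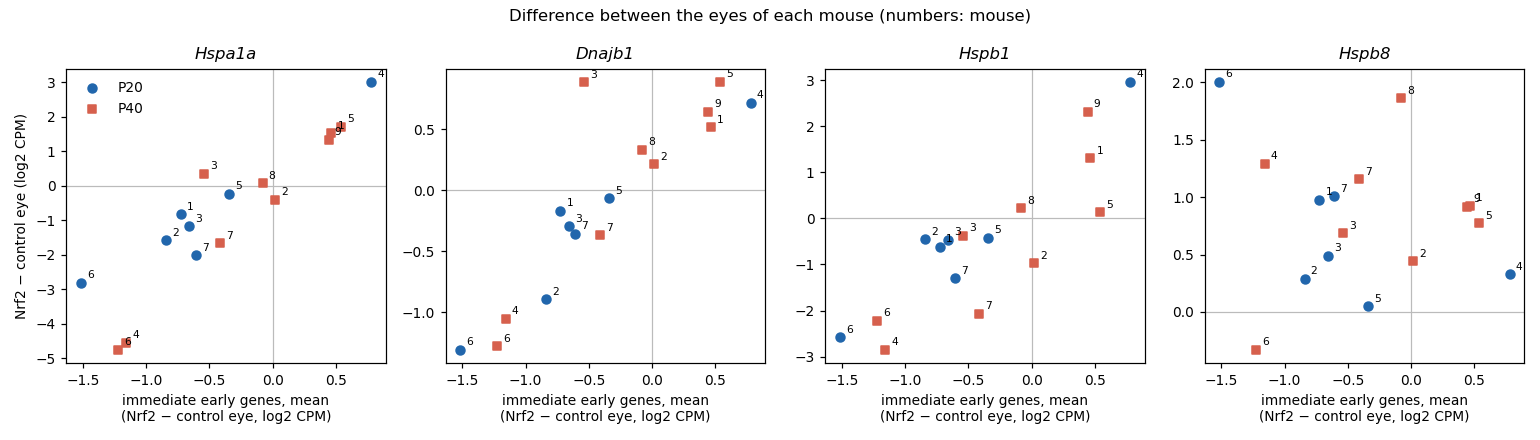
Difference between the Nrf2 and control eye of each mouse (log2 CPM) for Hspa1a, Dnajb1, Hspb1, and Hspb8 (vertical axes) against the same difference in the mean of 16 immediate early genes (horizontal axis), with circles for P20, squares for P40, and the mouse number beside each point. Hspa1a follows the immediate early genes (r = 0.94), whereas Hspb8 does not (r = −0.16) and lies above 0 in 15 of 16 mice.

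**Figure D4:**
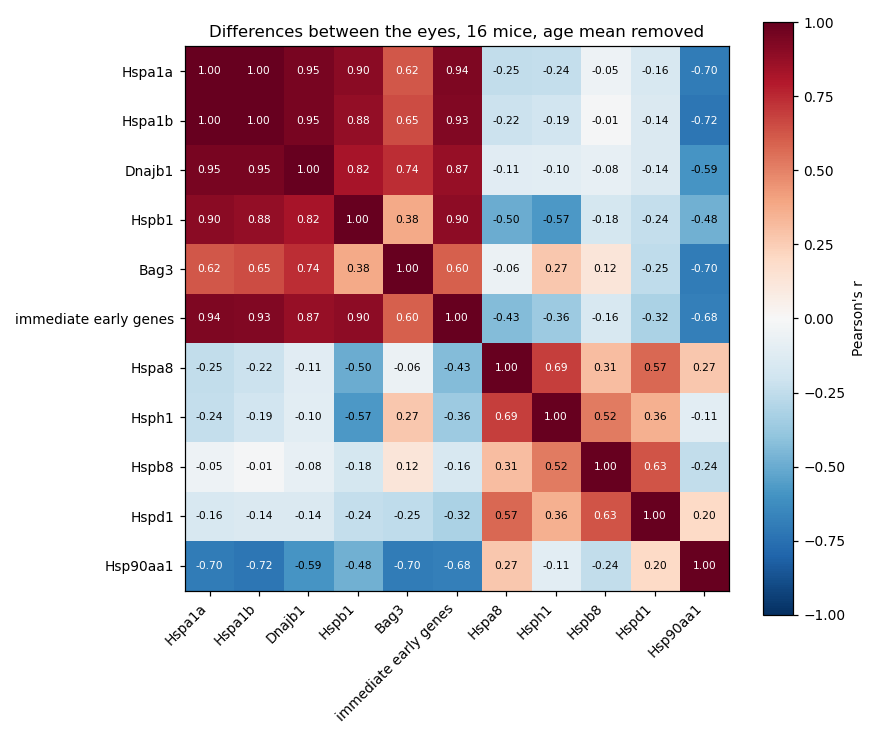
Pearson's r (colour and number) between the members, and with the mean of the immediate early genes, for the difference between the eyes in 16 mice with the mean of each age removed. Hspa1a, Hspa1b, Dnajb1, and Hspb1 form a block with the immediate early genes (r from 0.82 to 1.00), and Hspa8 goes with Hsph1 (r = 0.69). The split of reads between Hspa1a and Hspa1b is uncertain, so their rows are not independent.

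The constitutive HSC70 went with HSP110. Over both eyes averaged, *Hspa8* and *Hsph1* had an *r* of 0.89 (rho = 0.76, permutation *P* = 0.00015 and 0.00192, adjusted *P* = 0.00206 and 0.0132), which was 0.66 without P40 mice 4 and 8, 0.50 at P20, and 0.97 at P40. *Hspa8* ran against *Hspb1* (*r* = −0.81, rho = −0.55, permutation *P* = 0.00207 and 0.0334, adjusted *P* = 0.0116 and 0.0918, *r* = −0.62 without the 2 farthest mice, −0.90 at P20 and −0.79 at P40). *Hsp90aa1* ran against *Hspa1a* (*r* = −0.69, rho = −0.55, permutation *P* = 0.00713 and 0.0323, adjusted *P* = 0.0241 and 0.0918), with an *r* of −0.92 at P20 and −0.68 at P40. Without P40 mice 3 and 6 *r* was −0.38, so the size of the pooled *r* depends on those mice, although P20 holds neither. In control eyes alone *r* was −0.75 (adjusted permutation *P* = 0.00142), and −0.61 without P40 mouse 3 and P20 mouse 4.

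In the labels, all P20 libraries are numbered in an M series and all P40 libraries in an A series. What the letters stand for is not stated, and any difference between the series cannot be told apart from age. With age, 1 of the 10 members changed in control eyes, *Hsp90aa1*, which rose from P20 to P40 (log2FC 1.29, SE 0.34, 2.45-fold, adjusted *P* = 0.0298), against 14.8% of the 16832 genes tested in either direction and 8.34% upward. It was also the 1 member with an unadjusted *P* under 0.05, against 35.2% of genes. At P20 it ranged from 352 to 729 CPM (median 608) in control eyes and at P40 from 635 to 3095 CPM (median 1041), so the groups overlapped. The highest values at P40 were those of mouse 3 (3095 CPM) and mouse 5 (2081 CPM). In Nrf2 eyes it ranged from 450 to 681 CPM (median 508) at P20 and from 491 to 3399 CPM (median 668) at P40, highest in mouse 3 (3399 CPM) and mouse 6 (2161 CPM). That log2FC was 1.15 (SE 0.41, adjusted *P* = 0.120 in edgeR and 0.0451 in DESeq2), and no member passed in Nrf2 eyes in edgeR, against 0.502% of the 16745 genes tested, with 1 (*Hsp90aa1*) at an unadjusted *P* under 0.05, against 25.8% of genes.

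These 4 libraries also had the highest *Ttr*, the thyroxine carrier transthyretin, of all 32 (41307 and 27422 CPM in the control eyes of mice 3 and 5, and 56260 and 43134 CPM in the Nrf2 eyes of mice 3 and 6, beside medians of 9465 and 10567 CPM at P40). They had the highest shares of mitochondrial counts as well (3.52% and 3.75%, and 3.92% and 4.55%, beside medians of 1.89% in control and 2.28% in Nrf2 eyes at P40). The other 9 RPE markers did not rank so, with sums of 24451 and 21361 CPM in those control eyes and 11539 and 10844 CPM in those Nrf2 eyes, beside up to 31599 CPM in the control eye of mouse 9. The part of *Ttr* or mitochondrial RNA in the rise of *Hsp90aa1* was not tested. Without P40 mice 3, 5, and 6 the log2FC was 0.86 in control eyes (adjusted *P* = 0.0563) and 0.38 in Nrf2 eyes (adjusted *P* = 0.404). These mice were left out after seeing the data and hold the 4 libraries highest in *Hsp90aa1*, so a smaller rise follows from the choice. The call in control eyes was also lost without P20 mice 3 and 4 (1.33, adjusted *P* = 0.0892), and without P20 mouse 1, 2, 3, 5, or 7 or P40 mouse 5 alone (1.14 to 1.33, adjusted *P* = 0.0518 to 0.0634).

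**Figure D5:**
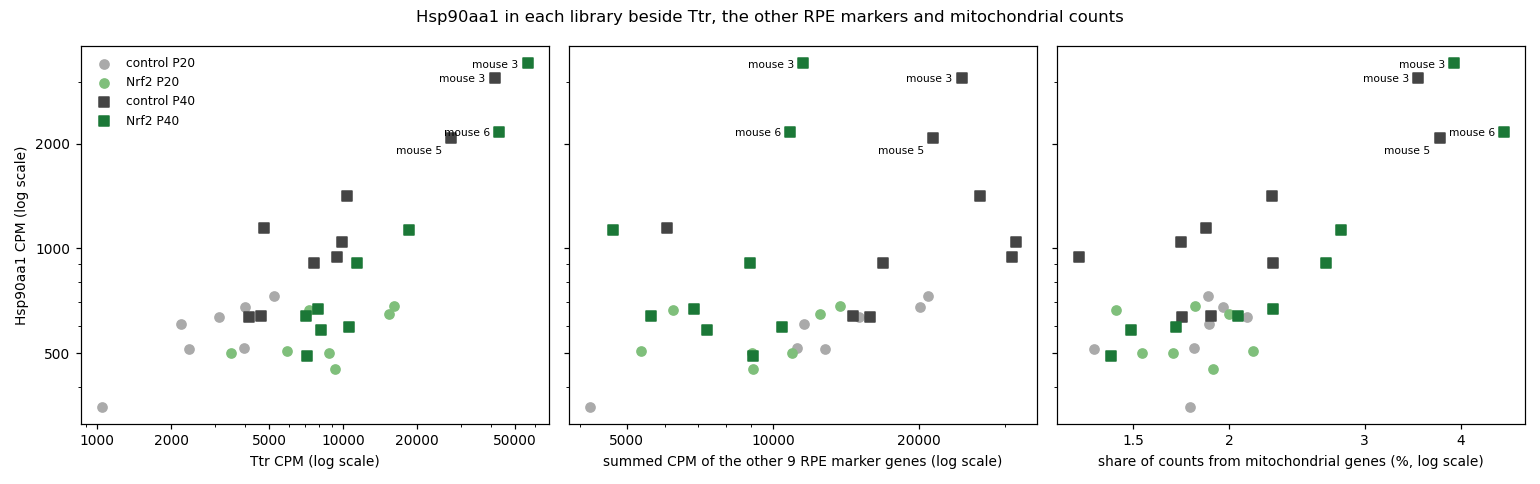
Hsp90aa1 in each of the 32 libraries (CPM, vertical log axis) against Ttr (CPM, left), the summed CPM of the other 9 RPE markers (middle), and the share of counts from mitochondrial genes (right, all horizontal log axes), with circles for P20, squares for P40, grey for control eyes, and green for Nrf2 eyes. The 4 libraries above 2000 CPM, labelled with their mouse, also have the highest Ttr and mitochondrial shares, but not the highest sums of the other 9 markers.

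No other member passed with age. *Hspb1* had the largest remaining values, with log2FCs of 0.83 (SE 0.63, adjusted *P* = 0.362) in control eyes and 1.33 (SE 0.69, adjusted *P* = 0.232) in Nrf2 eyes, and it was highest in both eyes of P40 mouse 8 (1448 CPM in the control eye and 1690 CPM in the Nrf2 eye, beside medians of 313 and 129 CPM). *Hsph1* had −0.39 (SE 0.23) and *Dnajb1* −0.36 (SE 0.23) in control eyes, and −0.02 (SE 0.19) and 0.13 (SE 0.22) in Nrf2 eyes. *Hspd1*, *Hspa8*, and *Bag3* lay between −0.20 and 0.23 in both kinds of eye.

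Among the 100 genes of the other chaperone lists, 14 rose and 7 fell with age in control eyes (against 14.8% called and 8.34% higher over all genes), and none rose and 2 fell in Nrf2 eyes (against 0.502% called), in edgeR. The risers were led by prefoldin, which hands unfolded actin and tubulin to the CCT chaperonin. Of 13 genes of CCT and prefoldin, 5 rose and none fell, all 5 of them prefoldin subunits, for example *Pfdn5* (log2FC 1.40, SE 0.40, adjusted *P* = 0.0342) and *Pfdn1* (1.39, SE 0.38, adjusted *P* = 0.0318). The median of that list was 0.32, beside 0.00 over all genes tested. None of the 13 passed with no filter, without P20 mice 3 and 4, or without P40 mice 3, 5, and 6, and 2 passed in limma voom. *Hspe1*, the HSP10 lid of the HSP60 chamber, rose (1.35, SE 0.44, adjusted *P* = 0.0486), whereas *Hspd1*, which encodes the chamber itself, had 0.09 (SE 0.15, adjusted *P* = 0.678). *Pfdn1*, *Pfdn5*, and *Hspe1* passed in 13, 11, and 8 of 24 alternatives, with values down to 0.66, 0.61, and 0.50. *Serpinh1*, the collagen chaperone HSP47, fell in control eyes (−1.73, SE 0.34, adjusted *P* = 0.0114, and in 24 of 24 alternatives) and in Nrf2 eyes (−1.60, SE 0.31, adjusted *P* = 0.0302, in 14 of 24). In control eyes 4 of 7 fibroblast markers fell beside it. *Hsf4*, the heat shock factor known for its role in the lens, also fell in both (−1.16, SE 0.31, adjusted *P* = 0.0306, and −1.44, SE 0.30, adjusted *P* = 0.0428), in 15 and 8 of 24 alternatives. *Hsf1* (−0.51, SE 0.22, adjusted *P* = 0.105) and *Hsf2* (0.73, SE 0.29, adjusted *P* = 0.0837) did not pass in control eyes.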

How the data were processed

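The data were estimated counts per gene in 32 RPE libraries, 1 for each eye of 16 mice. According to the methods, the RNA was amplified, and the authors counted reads with featureCounts after STAR and, in parallel, estimated counts with Salmon and tximport (mm10, Ensembl release 91). The submitters' processing notes name Salmon 0.9.1. The deposited values are estimated counts without normalization, which arrived as whole numbers, and the table does not name the counter; they were taken here as the Salmon estimates. It held 34453 genes, of which 4268 had no count.

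Nrf2 and control eyes were compared with edgeR 4.0.16 in R 4.3.3 (filterByExpr, TMM, quasi-likelihood fit), blocking on mouse because fellow eyes share an animal. The deviations of fellow eyes had an average correlation of 0.0214 (P20) and 0.0991 (P40), with 3 mice over 0.1 at each age. Ages were compared without a block, and the difference of the Nrf2 effect over all 32 libraries. Benjamini-Hochberg adjustment was applied to *P* values across every gene tested. Levels are CPM after TMM over all 32 libraries, log2 CPM used a prior count of 2, and relations used 100000 permutations within age. Libraries could not be placed in a sequencing run, and no term for runs was fitted. The edgeR fits of all comparisons, and the DESeq2 and limma fits of the Nrf2 comparisons, were tested on simulated data, and the permutation tests were not.

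Alternatives were DESeq2 1.42.0, RLE normalization, no filter, *Hspa1a* and *Hspa1b* summed, no block, one fit over all libraries, leaving out each mouse or eye, and leaving out P20 mice 3 and 4. Those added after seeing the data were limma 3.58.1 voom with weights per library, leaving out P20 mice 3, 4, and 6 or P40 mice 3, 5, and 6, and relations of eye differences. The named genes were the members, *Hsf1*, *Hsf2*, the transgene, and from each other list up to 4 of the largest changes past the threshold (where none passed, up to 2 of the smallest *P*). The members and lists were chosen with earlier results of these data known.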

Additional observations from a re-analysis of the deposited data

Results flagged for a closer look

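Among 40 sets of values (10 genes in 4 groups), 1 eye stood apart from its group by Dixon's criterion at 95%, which chance alone meets in about 1 of 20 sets. It was the control eye of P20 mouse 6, in which *Hspd1* was at 92.2 CPM, beside 117 to 132 CPM in the other 6 control eyes at that age. The gap to its neighbour was 0.661 of the range of the group.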

How the results depend on the processing

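At P20 no member passed in edgeR, 1 in DESeq2 (*Hspb8*), 1 in limma voom (*Bag3*), and 0 to 2 when each mouse was left out. At P40 2 passed, 1 without the replicate block (*Hspb8*), 1 without mice 3, 5, and 6 (*Hspb8*), and 0 to 3 when each mouse was left out, with 0 without mouse 4, 5, or 7. With age in control eyes 1 passed, 0 with no filter (*Hsp90aa1*, adjusted *P* = 0.0505), 0 without P20 mice 3 and 4, 0 without P40 mice 3, 5, and 6, and 0 to 1 when each eye was left out, and in Nrf2 eyes 1 passed in DESeq2 (*Hsp90aa1*) and 0 to 0 when each eye was left out. For the difference of the Nrf2 effect it was 0 to 0. Without the replicate block *Egr1* (−1.19 at P20, −1.45 at P40) and *Ccn1* (0.68 at P20) also lost their calls, *Dnajb4* gained one at P20 (0.58, adjusted *P* = 0.0297), and *Sqstm1* at both ages, *Optn* at P20, and *Dnajb4* at P40 kept theirs. Relations that passed by Pearson's *r* numbered 20 to 24 in all alternatives. Calls over the whole table moved more. At P20 they numbered 556, and 1951 in DESeq2, 2605 in limma voom, 1093 without the block, 348 with no filter, 269 without mice 3, 4, and 6, and 111 to 1999 when each mouse was left out. At P40 they numbered 762, and 1380 in DESeq2, 1327 in limma voom, and 483 without mice 3, 5, and 6. With age in control eyes they numbered 2483, and 4362 in DESeq2, 3747 in limma voom, 914 with no filter, 158 without P20 mice 3 and 4, 339 without P40 mice 3, 5, and 6, and 473 to 4273 when each eye was left out. In Nrf2 eyes they numbered 84, and 1762 in DESeq2, 2213 in limma voom, 496 in 1 fit over all libraries, 31 with no filter, 20 without P20 mice 3 and 4, 28 without P40 mice 3, 5, and 6, and 21 to 190 when each eye was left out. For the difference of the Nrf2 effect they numbered 1, and 12 in DESeq2.

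Values that changed sign were those of members that did not pass. In limma voom they were *Hspa8* (0.0549), *Hsp90aa1* (0.138), and *Hspd1* (−0.0444) at P20, *Hspa8* (0.0062) at P40, *Hspa1a* (0.0436) and *Bag3* (0.0674) with age in control eyes, and *Hspa1a* (−0.109), *Hspa1b* (−0.0765), *Hsph1* (0.0005), and *Dnajb1* (−0.0158) with age in Nrf2 eyes. Without P20 mice 3, 4, and 6 they were *Hsp90aa1* (0.0523) and *Hspd1* (−0.016) at P20. Without P40 mice 3, 5, and 6 they were *Dnajb1* (−0.0016) at P40 and *Hspd1* (−0.0428) with age in control eyes. In 1 fit over all libraries *Hspa8* was 0.0209 at P40. For the difference of the Nrf2 effect they were *Hspa8* (−0.0394), *Hspb1* (0.494), and *Hspb8* (−0.031) without P20 mice 3 and 4, and *Hspb1* (0.476) without the replicate block.

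When each mouse or eye was left out, the ranges that crossed 0 were, at P20, *Hspa8* (−0.1155 to 0.0216), *Hsp90aa1* (−0.108 to 0.0286), and *Hspd1* (−0.008 to 0.0858), and, at P40, *Hspa1b* (−0.798 to 0.0045), *Hspa8* (−0.0618 to 0.0614), and *Dnajb1* (−0.0456 to 0.202). With age they were *Hspa1a* (−0.6495 to 0.0026), *Bag3* (−0.172 to 0.0162), and *Hspd1* (−0.0107 to 0.142) in control eyes and *Hsph1* (−0.121 to 0.0563) in Nrf2 eyes. For the difference of the Nrf2 effect they were *Hspa8* (−0.0573 to 0.1235), *Hspb1* (−0.370 to 0.405), and *Hspb8* (−0.0369 to 0.316). The cause was not tested. Another scaling moved the median of all genes by at most 0.1. The limits are the number of mice and the spread of the HSP70 genes, whose SE ran from 0.52 to 0.79 for Nrf2 and for age.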
